A study of Mus musculus with 31 samples.

Results

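Liver RNA was compared between male F1 offspring of a paternal HF arm (5 libraries) and of a paternal LF arm (4 libraries), which are 9 of the 31 libraries of the series. The libraries were chosen by their titles and tissue, not by any measured value. All of these mice were wild type (WT) males of the C57BL/6 strain, sampled at 24 weeks of age. The animals of both arms ate alike: chow until week 6, and LFD for the 18 weeks that followed. Since their own food did not differ, the diet tag of a sample (LFD or HFD) was read as the arm of its father. This reading draws on the title of the series, and the labels do not state it. Another arm, HFLF (tag HFLFD, 6 libraries), lent its spread to the model and is given only as levels beside a few genes. The labels do not say which father or litter each animal came from, so the p-values measure the spread between these animals alone. Libraries are named by arm and number, LF1, LF2, LF3 and LF6 against HF1, HF2, HF3, HF5 and HF6, and lists of values follow that order.

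The liver takes up fatty acids and sugars, stores them as triglyceride, burns them in mitochondria and peroxisomes, and exports lipid in lipoproteins. It also oxidises and conjugates drugs, steroids and bile acids, largely with cytochrome P450, UDP-glucuronosyltransferase and glutathione transferase enzymes. Fat use in hepatocytes is switched on by the nuclear receptor PPAR-alpha, which fatty acids activate in fasting. Studies of paternal diet ask whether a father's nutrition before mating shows in the gene expression of offspring that never ate that diet.

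Each library held 9225373 to 17268415 counts over 13677 genes, and the totals did not go with the arm (means of 14631400 ± 1556360 in HF and 13898700 ± 3122230 in LF, exact two-sided permutation test over 126 labellings, p = 0.730). LF2 was the shallowest, and without it the HF mean was the lower one. The 10 most abundant genes took 16.3% to 18.6% of the counts. On the first principal component, which held 26.2% of the variance of the 9 libraries, the arms overlapped. LF1 (-28.6) and LF3 (-19.2) lay at one end of it, and LF6 (27.6) and HF6 (33.2) at the other. The tissue label was checked against hepatocyte genes, in CPM, which are counts scaled to the depth of the library and its TMM size factor. Alb, the gene of serum albumin, was measured at 55259, 61463, 57756 and 57097 CPM in LF and 64173, 52461, 77111, 74166 and 74345 CPM in HF.

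No gene passed the test across the genome. The edgeR quasi-likelihood test, with Benjamini-Hochberg adjustment over all 13677 genes, called 0 genes (0%) at an adjusted p of 0.05. The smallest adjusted p was 0.718, for Gstp-ps, and that of the other genes named here was 1.00. DESeq2 called only Gstp-ps (adjusted p = 0.00797), and limma voom called 0. An unadjusted p under 0.05 was found in 492 genes (3.6%), 262 higher in HF (1.92%) and 230 lower (1.68%), where 684 are expected with no difference. Without LF6 that number was 769. The arms did not overlap for 96 genes that were higher in all HF libraries (0.702%) and for 87 that were lower (0.636%). The median log2 fold change of all genes, HF minus LF, was -0.002, and 6753 genes (49.4%) lay above 0. Every gene below is therefore described by its values, as log2 fold change ± SE from the edgeR fit and as mean CPM ± SD (n = 5 HF and n = 4 LF), and none of them is a called difference. The SE was worked back from the test, as the absolute log2 fold change divided by the square root of the F statistic.

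**Figure D1:**
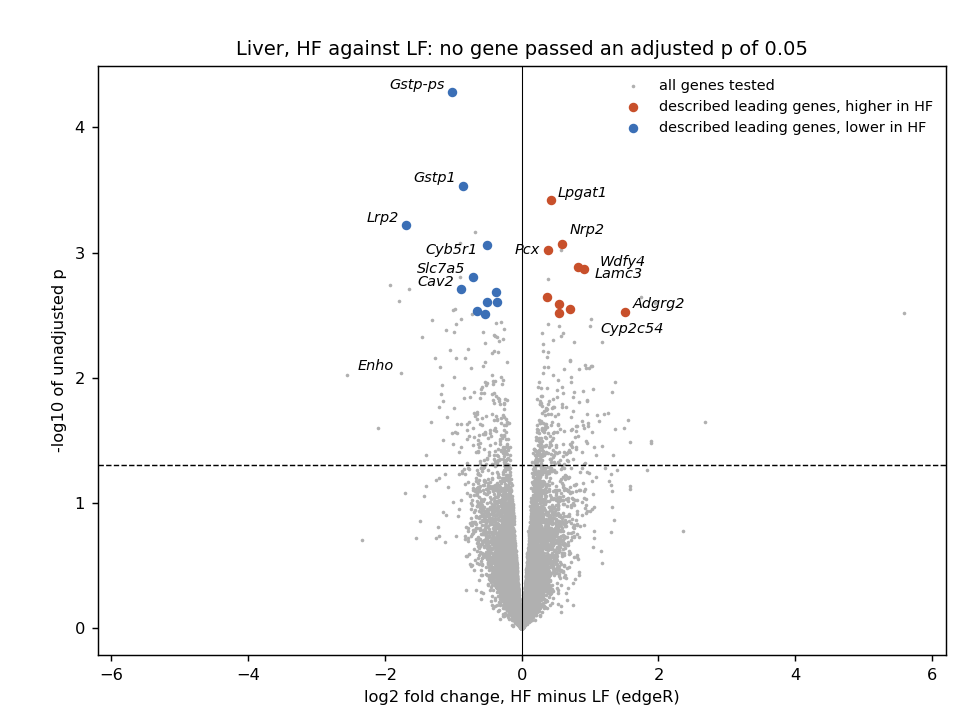
Unadjusted p of the edgeR test (vertical axis, -log10) against the log2 fold change, HF minus LF (horizontal axis), for 13677 liver genes (grey), with leading genes described in the text in colour (10 higher and 11 lower in HF). Points above the dashed line have an unadjusted p under 0.05, which 492 genes did.

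Among the genes with higher values in HF, the leading ones included enzymes of lipid and acyl chain metabolism. Lpgat1, an acyltransferase that remodels phospholipids, lies at chr1:191717834-191784255 (coordinates here are GRCm38, GENCODE M21). It was measured at 171, 167, 169 and 184 CPM in LF and at 229.5, 219.7, 229, 233 and 249 CPM in HF. The arms did not overlap, and the difference was 0.42 ± 0.10 on the log2 scale. The spread within each arm was small beside it, with 232 ± 10.9 CPM in HF and 173 ± 7.80 in LF. Pcx, pyruvate carboxylase, makes oxaloacetate for the TCA cycle and for glucose synthesis (chr19:4510472-4621752). Its levels were 795, 735, 723 and 726 CPM in LF and 1025, 1041, 905, 1041 and 834 CPM in HF, without overlap (0.38 ± 0.10). Acsm3, a medium-chain acyl-CoA synthetase, had 87.2 ± 5.73 against 67.1 ± 9.30 CPM in HF and LF (0.38 ± 0.11), and Acad10, of the acyl-CoA dehydrogenase family, 37.3 ± 3.87 against 25.5 ± 4.18 CPM (0.55 ± 0.16). Both were higher in every HF library than in every LF library.

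Other leading genes on this side act at the cell surface or in immune cells. Nrp2, a co-receptor for semaphorins and for VEGF-C, had 8.62, 11.7, 12.1 and 14.7 CPM in LF and 20.2, 19.6, 16.9, 16.2 and 16.3 in HF (0.60 ± 0.15, chr1:62703285-62818695). Every HF library exceeded LF6, the highest LF library. Wdfy4, which dendritic cells need to present antigen from other cells, had 4.18, 5.37, 3.31 and 4.31 CPM in LF and 7.495, 10.7, 6.13, 5.85 and 7.53 in HF (0.82 ± 0.21). Lamc3, a laminin chain of basement membranes, was at 5.27 ± 0.809 against 2.77 ± 0.759 CPM (0.91 ± 0.24). These last 3 genes were also separated without overlap. Tnfrsf19, a receptor of the TNF receptor family (0.71 ± 0.20), and Adgrg2, an adhesion G protein-coupled receptor (1.51 ± 0.44), overlapped between the arms: HF6 stood at 4.46 CPM for Tnfrsf19 against 5.87 in LF3, and LF6 at 1.33 CPM for Adgrg2 against 1.18 in HF2.

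A detoxification gene was also in this group. Ugt1a1, which conjugates bilirubin, had 53.3, 64.3, 56.1 and 90.1 CPM in LF and 88.7, 75.3, 103, 113 and 103 in HF (0.55 ± 0.16). LF6 lay above 2 of the HF libraries. Ugt1a genes share their last exons, so counts may be split between them, and this value is uncertain for that reason.

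The lower side was led by the glutathione transferase Gstp1, which couples glutathione to reactive compounds and is among the most abundant transferases of male mouse liver. It had 1703, 1802, 1488 and 1282 CPM in LF and 802, 906, 1094, 722 and 804 in HF, or 866 ± 143 CPM in HF and 1569 ± 232 in LF (-0.86 ± 0.19, unadjusted p = 2.94e-04). The lowest LF library was above the highest HF library. Gstp-ps, a processed pseudogene of the same family, had 20.3, 21.4, 19.98 and 14.02 CPM in LF and 8.14, 9.33, 11.8, 7.59 and 9.43 in HF (-1.02 ± 0.19, unadjusted p = 5.25e-05), again without overlap. Gstp2, the neighbouring gene, was low and separated in the same direction, at 1.39 ± 0.314 against 2.14 ± 0.542 CPM (-0.64 ± 0.33), whereas Gstp3 was at 21.9 ± 2.72 against 22.2 ± 8.31 CPM (-0.02 ± 0.25) and overlapped.

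Gstp1 (chr19:4035407-4037985, minus strand), Gstp2 (chr19:4040285-4046023) and Gstp-ps (chr1:192073820-192074450) are near copies, so the same reads could be counted for more than one of them. Over the 633 coding bases of Gstp1, Gstp-ps was identical at 97.6% of aligned bases (15 mismatches), Gstp2 at 98.1% (12 mismatches) and Gstp3 at 75.04%. Both near copies held a stretch of 303 bases without a mismatch. Coding bases 3 to 92, counted from the A of the start codon of Gstp1, are shown because they hold 6 mismatches in each near copy, with capitals at the bases that differ from Gstp1 (GRCm38, mRNA strand, 5′ to 3′).
Gstp1: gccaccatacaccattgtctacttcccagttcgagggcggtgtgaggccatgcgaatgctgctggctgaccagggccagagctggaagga
Gstp2: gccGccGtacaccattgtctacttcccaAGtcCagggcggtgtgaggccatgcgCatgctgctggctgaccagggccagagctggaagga
Gstp-ps: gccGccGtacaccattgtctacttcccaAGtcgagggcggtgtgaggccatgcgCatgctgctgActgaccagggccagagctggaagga
The Gstp-ps level was 1.09% to 1.34% of that of Gstp1 in the LF libraries and 1.02% to 1.17% in the HF libraries. Gstp1 itself spanned 722 to 1802 CPM over the same libraries. Gstp2 held 0.0993% to 0.231% of the Gstp1 level over the 9 libraries. How the authors treated reads that match several places is not given in the sources used here, and whether the counts of the copies are independent was not tested.

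Other leading genes with lower values in HF were mostly of low abundance. Lrp2, the endocytic receptor megalin, had 6.70, 4.32, 2.56 and 3.74 CPM in LF and 0.571, 1.54, 1.62, 1.32 and 1.61 in HF (-1.69 ± 0.40). LF3 was the closest to HF, at 2.56 against 1.62 CPM in HF3. Cyb5r1, a cytochrome b5 reductase and NRF2 target, had 15.5, 18.6, 15.9 and 13.4 CPM in LF and 11.4, 10.2, 11.002, 11.1 and 11.8 in HF (-0.51 ± 0.13), with an HF arm that was tight around 11.1 CPM. The amino acid carrier gene Slc7a5 (-0.72 ± 0.19), the cytokine receptor gene Crlf2 (-0.38 ± 0.11), the kinase gene Cdk20 (-0.51 ± 0.14), Pip5k1c, which makes the lipid PIP2 (-0.35 ± 0.10), and Ptgr1, a prostaglandin reductase (-0.65 ± 0.19), were also separated without overlap. Pip5k1c was the most abundant of these 5, with 40.0 ± 4.13 against 51.1 ± 3.40 CPM. Cav2, a caveolin (-0.88 ± 0.24), and Pdlim7, an actin-associated protein (-0.53 ± 0.15), overlapped between the arms.

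**Figure D2:**
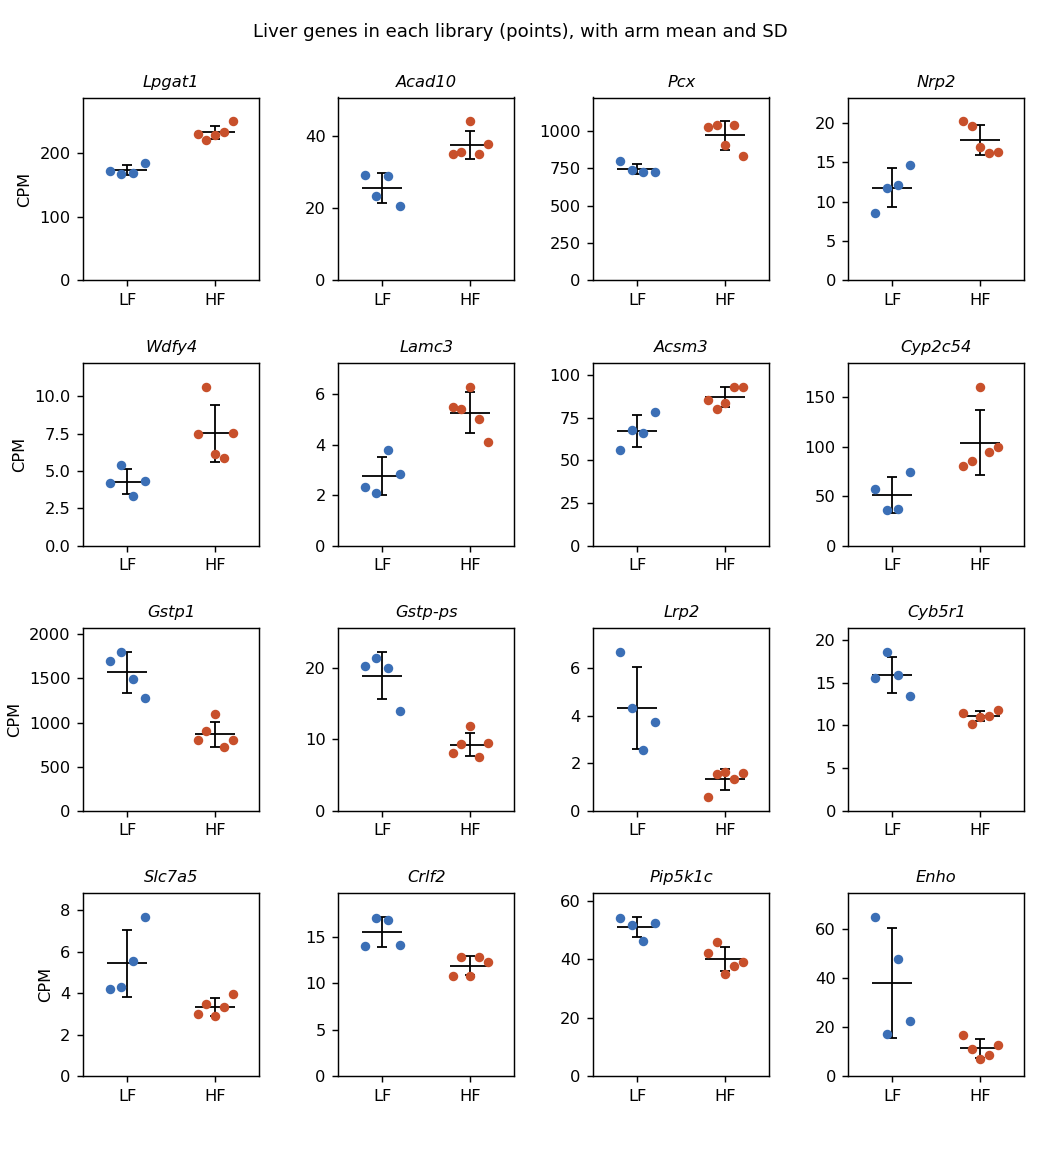
CPM of 16 genes in each LF (blue) and HF (orange) liver library, with the mean (long bar) and SD of each arm, on axes that start at 0. In each of these genes the libraries of one arm all lie above those of the other, because only genes without overlap were drawn. Leading genes whose arms overlapped, such as Tnfrsf19 and Ugt1a1, are not shown.

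Differences of the largest size among moderately expressed genes without overlap included further P450 and lipid genes. Cyp2c54, a P450 of the drug-metabolising 2C family, had 57.6, 36.4, 36.7 and 74.6 CPM in LF and 80.8, 85.3, 161, 94.8 and 99.9 in HF (1.02 ± 0.29). HF3 was the highest, and LF6 was the LF library closest to HF. Aacs, which activates acetoacetate for lipid synthesis, had 91.2, 75.7, 83.9 and 38.6 CPM in LF and 134, 143, 177, 112 and 146 in HF (0.98 ± 0.32). Its lowest library was LF6, and HF5 was the HF library closest to LF. Ces1g, a carboxylesterase of lipid handling (127 ± 36.9 against 68.5 ± 14.7 CPM, 0.89 ± 0.31), Osbpl3, of the oxysterol-binding family (14.6 ± 4.43 against 7.69 ± 1.97 CPM, 0.93 ± 0.43), and the steroid hydroxylase gene Cyp17a1 (48.4 ± 10.3 against 27.7 ± 9.09 CPM, 0.80 ± 0.35) were in the same group. On the other side, Enho, the gene of the peptide adropin, had 64.9, 16.9, 47.9 and 22.3 CPM in LF and 16.9, 11.2, 6.85, 8.70 and 12.6 in HF (-1.77 ± 0.58). LF2 and HF1 were almost level, and LF1 and LF3 were the highest of the 9 libraries. The membrane protein gene Tspan33 (-0.58 ± 0.23) and the palmitoyltransferase gene Zdhhc14 (-0.57 ± 0.17) had smaller differences.

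Lists of genes by pathway are described by how many members were fitted above 0 and by their median log2 fold change, beside 49.4% and -0.002 for all genes. Counts of members with an unadjusted p under 0.05 in the edgeR test stand beside 1.92% of all genes on the higher side and 1.68% on the lower. Counts without overlap stand beside 0.702% and 0.636%. The lists and their members were chosen with earlier results of these data known, so these counts are descriptions and no test. Members of a list can also move together between animals. Of the PPAR-alpha targets, 35 of 35 were fitted higher in HF, with a median of 0.31. Of the members, 6 had an unadjusted p under 0.05. Among these were the receptor gene Ppara itself (0.51 ± 0.21), the fatty acid transporter gene Cd36 (0.50 ± 0.21), Cpt1a, which admits fatty acids to mitochondria (0.29 ± 0.13), and Acaa1a and Mgll, chosen after their values were seen. Cpt1a had 528, 632, 589 and 579.8 CPM in LF and 717, 749, 658, 766 and 677 in HF, and its arms did not overlap. Ehhadh, a peroxisomal enzyme, was at 200.6 ± 52.2 against 175 ± 74.3 CPM (0.20 ± 0.35).

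The list means of the 2 arms overlapped. Its mean log2 CPM, centred on the 9 libraries, was -1.03, 0.29, -1.08 and 0.39 in LF and -0.11, 0.30, -0.06, 0.61 and 0.68 in HF. LF1 and LF3 were far below the rest, while LF2 and LF6 lay within the HF range. The median was accordingly 0.48 without LF2, 0.16 without LF3 and 0.47 without LF6. The strongly inducible members showed this in their own counts. Cyp4a14, an omega-hydroxylase, had 0.862, 92.6, 2.68 and 482 CPM in LF and 25.3, 98.6, 16.7, 212 and 722 in HF (0.57 ± 1.64). Cyp4a10 had 4.91, 78.7, 9.12 and 277 CPM in LF and 58.2, 163, 116, 267 and 436 in HF (1.17 ± 1.09), and the acyl-CoA thioesterase gene Acot1 4.05, 40.1, 4.62 and 71.2 and 15.6, 29.0, 37.0, 74.9 and 94.97 (0.75 ± 0.93). In all 3 genes LF1 and LF3 were the lowest of the 9 libraries, and in Cyp4a14 and Cyp4a10 LF6 exceeded all HF libraries except HF6. Pdk4, another target, differed by less than its error (3.59 ± 0.975 against 3.60 ± 2.48 CPM, 0.05 ± 0.49).

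Genes of mitochondrial fat oxidation were all fitted higher in HF (22 of 22, median 0.17), and 1 of them, Cpt1a, had an unadjusted p under 0.05. Of these genes 5 are PPAR-alpha targets too. The median was 0.27 without LF2 and 0.11 without LF3. Per library the centred list mean was -0.25, 0.08, -0.32 and 0.03 in LF and 0.03, 0.06, 0.01, 0.18 and 0.19 in HF, so LF1 and LF3 again lay below and LF2 above 3 of the 5 HF libraries. Peroxisome genes were higher in 21 of 30 members (median 0.06), which came to 0.14 without LF2, 0.03 without LF3 and 0.10 without HF3. Members below 0 included the assembly factor gene Pex10 (-0.14 ± 0.13).

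TCA cycle genes, which oxidise acetyl groups to carbon dioxide, were higher in 23 of 25 members, with a median of 0.10. Leaving out any 1 library kept it between 0.08 and 0.13. The centred mean was -0.14, -0.01, -0.06 and -0.05 in the LF libraries and 0.02, -0.02, 0.10, 0.08 and 0.06 in the HF libraries, and HF2 was the HF library among the LF values. Besides Pcx, Pdha1, a subunit of pyruvate dehydrogenase, had 94.2, 124, 104 and 106 CPM in LF and 131, 115, 129, 139 and 128 in HF (0.27 ± 0.10), and Sdha, of succinate dehydrogenase, 597 ± 21.2 against 523 ± 32.6 CPM (0.19 ± 0.09). Fumarase, Fh1, was one of 2 members on the other side (-0.10 ± 0.10). Catabolism of the branched-chain amino acids, which feeds the same cycle, was higher in 23 of 25 members (median 0.10, and 0.06 without HF3). Acat1, the thiolase that ends isoleucine breakdown, was at 429.8 ± 36.8 against 333 ± 71.2 CPM (0.37 ± 0.13), and Bckdha, of the committing dehydrogenase, at 107 ± 4.47 against 97.2 ± 3.48 CPM (0.13 ± 0.08). The transaminase gene Bcat2 lay on the other side (-0.23 ± 0.12).

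**Figure D3:**
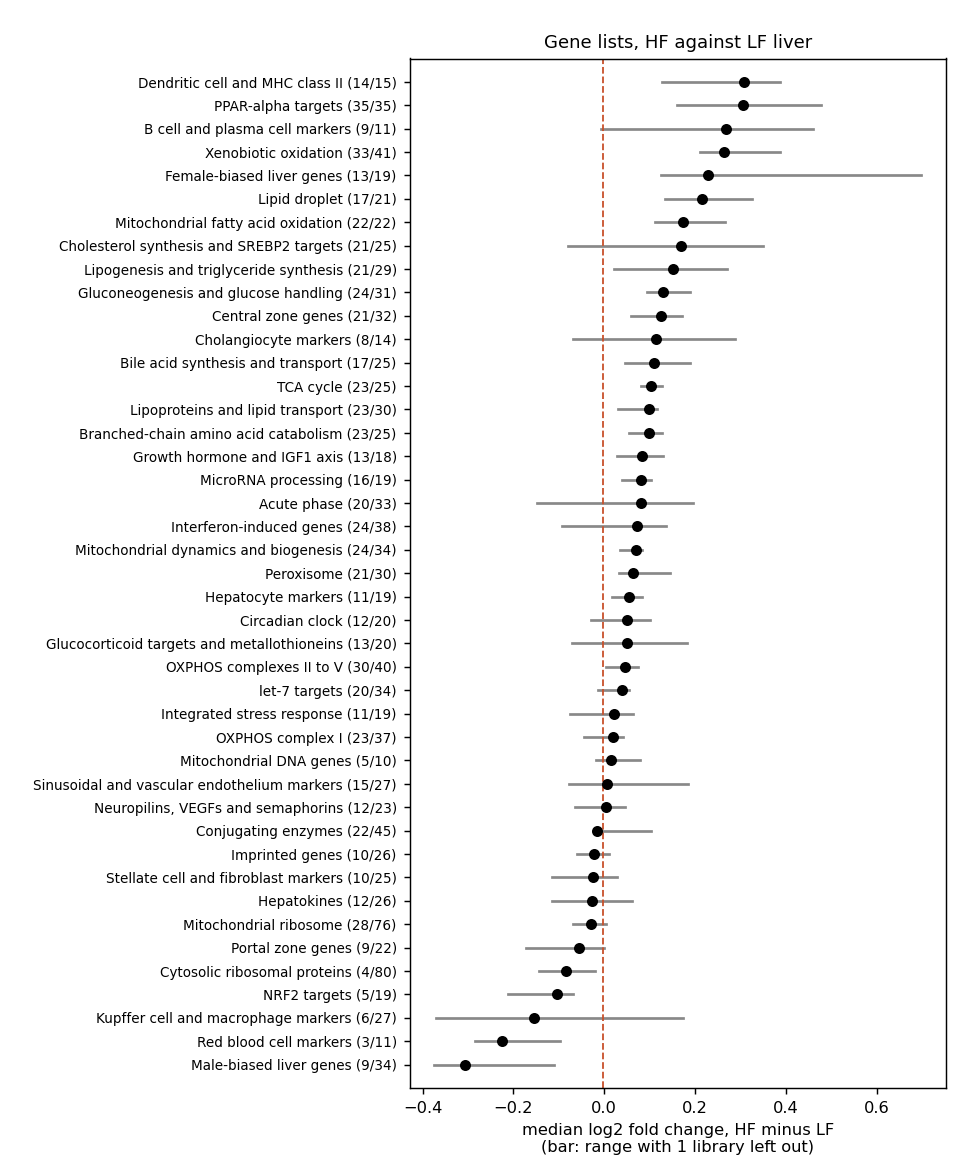
Median log2 fold change, HF minus LF (points), of 43 gene lists with at least 10 measured genes, with the number of members fitted higher in HF in parentheses. Grey bars span the medians with any 1 library left out, and the dashed line is the median of all genes (-0.002). PPAR-alpha targets and xenobiotic oxidation are among the lists that stayed above 0 throughout, and male-biased and cytosolic ribosomal protein genes among those that stayed below.

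Respiratory chain lists had medians near 0. The range given with a median, here and for later lists, is of the medians with 1 library left out. Of complex I, 23 of 37 members were higher (median 0.02, range -0.045 without LF6 to 0.042 without LF1), among them the core subunit gene Ndufs1 (0.16 ± 0.08) and Ndufa7 (0.16 ± 0.07), with Ndufa1 on the other side (-0.19 ± 0.11). Complexes II to V had 30 of 40 higher (median 0.05, range 0.0038 without LF6 to 0.075 without LF3), and the ATP synthase gene Atp5g1 was at -0.10 ± 0.10. The genes of mitochondrial DNA were even (5 of 10 higher, median 0.02, range -0.018 without LF1 to 0.078 without HF2): mt-Nd1 had 3881 ± 394 against 4043 ± 318 CPM (-0.06 ± 0.13), mt-Nd3 0.29 ± 0.20 and the rRNA gene mt-Rnr1 -0.28 ± 0.16. HF2 was the lowest library on this list, at -0.34 on its centred mean. Regulators of mitochondrial fusion, fission and biogenesis had 24 of 34 higher (median 0.07, range 0.036 without HF6 to 0.082 without HF1), and 0 of them had an unadjusted p under 0.05. The fusion gene Mfn2 was at 158 ± 17.3 against 138 ± 7.61 CPM (0.19 ± 0.10) and the receptor gene Esrra at -0.13 ± 0.14. The series title names mitochondrial dysfunction, and of these 4 lists those of complex I and of mitochondrial DNA had medians of either sign, depending on the library left out.

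Ribosomal proteins of the cytosol were lower in 76 of 80 members, but by little (median -0.09). Rpl39 had the smallest p (25.9 ± 3.27 against 31.8 ± 6.24 CPM, -0.30 ± 0.12), while Rpl3 (-0.03 ± 0.13) and Fau (0.04 ± 0.10) were level. The list mean was high in LF1 and LF3 (0.20, -0.11, 0.22 and -0.13 in LF, -0.07, 0.02, 0.04, -0.08 and -0.09 in HF), and the median was -0.04 without LF1, -0.14 without LF2, -0.02 without LF3 and -0.14 without LF6. Mitochondrial ribosomal proteins had 28 of 76 higher (median -0.03, range -0.069 without LF6 to 0.0043 without HF1), with Mrpl12 at -0.06 ± 0.08, Mrpl39 at 0.16 ± 0.08 and Mrps12 at -0.16 ± 0.08. Ribosomal protein genes are short, and fold changes varied with transcript length over all genes. The quartile of genes with the shortest exons had a median of -0.02 and the quartile with the longest 0.02, in which 57.0% lay above 0. The part of length in the lists' values was not tested.

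Lipid synthesis showed large differences between animals in both arms. Of the genes for fatty acid and triglyceride synthesis, 21 of 29 were higher in HF (median 0.15), and Aacs alone had an unadjusted p under 0.05. Fasn, fatty acid synthase, had 670.3, 644, 583 and 175 CPM in LF and 738, 338, 1142, 630.3 and 517 in HF (0.38 ± 0.51). Thrsp, a lipogenic regulator, had 316, 169, 457 and 217 CPM in LF and 332, 353, 1399.6, 729 and 775 in HF (1.31 ± 0.63), and Scd1, the stearoyl-CoA desaturase, 8535 ± 3217 against 8163 ± 4538 CPM (0.06 ± 0.52). LF6 was the lowest of the 9 libraries for Fasn and Scd1, and HF3 the highest for Fasn and Thrsp. The list median was 0.27 without LF2, 0.24 without LF3, 0.02 without LF6 and 0.08 without HF3. Gpd1, which makes the glycerol backbone, was at -0.15 ± 0.25. Cholesterol synthesis genes and other SREBP2 targets were higher in 21 of 25 members (median 0.17), with 0 at an unadjusted p under 0.05. The sterol carrier gene Stard4 was at 0.35 ± 0.24 and Mvk at -0.23 ± 0.48. The centred list mean spanned 0.56, -0.28, 0.18 and -0.84 in LF and 0.83, -0.20, 0.10, 0.20 and -0.54 in HF, and its median was 0.35 without LF1, 0.07 without LF2, -0.01 without LF6, -0.08 without HF1, 0.26 without HF2 and 0.27 without HF6.

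Lipid droplet genes were higher in 17 of 21 members (median 0.22, and 0.13 without LF6, 0.14 without HF2 and 0.33 without HF6). Fitm2, which buds droplets from the endoplasmic reticulum, had 52.7, 75.7, 62.6 and 78.9 CPM in LF and 79.5, 88.0, 87.8, 103 and 108 in HF (0.47 ± 0.18), without overlap. The droplet coat gene Plin2 had 468, 857, 185 and 217 CPM in LF and 582, 747, 391, 444 and 341 in HF (0.22 ± 0.52), so its spread within LF alone was larger than the arm difference. Fabp4, a fatty acid binding protein of fat cells and macrophages, was at 7.76 ± 2.29 against 13.3 ± 10.7 CPM (-0.78 ± 0.37), with 29.4 CPM in LF1. Lipoprotein and lipid transport genes were higher in 23 of 30 members (median 0.10, and 0.06 without LF3, 0.03 without LF6 and 0.06 without HF2). A1cf, which guides the editing of apolipoprotein B mRNA, had 30.3, 28.2, 25.7 and 32.3 CPM in LF and 33.0, 29.3, 31.9, 58.1 and 57.2 in HF (0.52 ± 0.21). HF5 and HF6 held the highest values, and the other HF libraries lay close to LF. Apoa4 was at 952 ± 423 against 860.3 ± 368 CPM (0.15 ± 0.34).

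Bile acid genes were higher in 17 of 25 members (median 0.11, and 0.06 without LF1, 0.19 without LF6 and 0.05 without HF5). Cyp7a1, the rate-limiting enzyme of bile acid synthesis, had 34.6, 94.6, 147 and 201.1 CPM in LF and 56.8, 89.9, 115, 108 and 189 in HF (-0.10 ± 0.80), and the order of the arms could not be told from these values. Slc27a5, which activates bile acids, was at 1009 ± 91.1 against 870.4 ± 48.8 CPM (0.21 ± 0.10) and Baat, which joins them to taurine, at 209 ± 3.57 against 237 ± 26.3 CPM (-0.18 ± 0.09).

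Among enzymes that oxidise foreign compounds and their regulators, 33 of 41 were higher in HF (median 0.26). The median stayed between 0.21 and 0.39 with any 1 library left out. Of these genes, 7 had an unadjusted p under 0.05 on the higher side and 1 on the lower side, and 4 were separated without overlap on the higher side. The shares of all genes were 1.92%, 1.68% and 0.702%, in that order. Beside Cyp2c54, Cyp2c50 had 196, 137, 108 and 189 CPM in LF and 199, 239, 293, 229.9 and 238 in HF (0.60 ± 0.18). Cyp2c39, at about 1 CPM in HF, differed by 1.56 ± 0.62. The P450 genes of the 2C family lie side by side and resemble one another, so counts may be shared between them. Cyp1a1, the target of the aryl hydrocarbon receptor, was low in both arms (0.623 ± 0.345 against 1.40 ± 0.681 CPM, -1.18 ± 0.43). LF3 was the lowest library on this list (-0.50 centred) and HF6 the highest (0.46).

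The conjugating enzymes had no common direction (22 of 45 higher, median -0.02, range -0.015 without HF5 to 0.10 without LF2), and Gstp-ps, Gstp1 and Ugt1a1 had the smallest p. NRF2 targets, which defend against oxidants, were lower in 14 of 19 members (median -0.10, and -0.07 without LF2, -0.21 without LF6 and -0.16 without HF1). Cyb5r1 was the member of smallest p. The transporter gene Abcc3 lay on the other side, with 48.8, 156, 41.8 and 130.3 CPM in LF and 77.5, 146, 133, 227 and 259 in HF (0.84 ± 0.44), and Nqo1, a classic target, was level (3.22 ± 0.322 against 3.01 ± 1.24 CPM, 0.11 ± 0.26).

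Mouse liver genes differ between the sexes under the pulsed or steady secretion of growth hormone, and all animals here were male. Female-biased genes were measured for 19 of 33 listed members and were higher in 13 of 19 (median 0.23). Male-biased genes were lower in 25 of 34 (median -0.31). The list means were spread widely over the animals: the female-biased list had centred values of -1.31, -0.39, -0.64 and 0.55 in LF and -0.11, 0.08, 0.33, 0.61 and 0.89 in HF, and the male-biased list 0.60, -0.05, 0.30 and -0.13 and 0.12, 0.23, 0.06, -0.32 and -0.81. HF6 was the highest library on the first and the lowest on the second, and LF1 the reverse. The female-biased median was 0.70 without LF6, 0.35 without HF1, 0.47 without HF2 and 0.13 without HF6, and the male-biased one -0.11 without LF1 and -0.19 without HF6. Among the members of these sex-biased lists, Cyp4a10, Cyp4a14 and Acot3 are also PPAR-alpha targets.

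Mup20, a male-biased major urinary protein, had 6312, 6377, 6205 and 4206 CPM in LF and 5473, 4618, 4538, 2891 and 2989.8 in HF (-0.49 ± 0.24). Mup genes are a family of near copies, and their counts are uncertain for that reason. Cyp4a12b, another male-biased gene, was at 51.0 ± 14.9 against 28.7 ± 12.3 CPM (0.83 ± 0.34), opposite to its list. Cux2, a female-specific transcription factor, reached 8.94 CPM in LF6 alone and was at or under 1.02 CPM in the other 8 libraries (-1.70 ± 0.91). Cyp2b9, a strongly female-biased P450, was between 0 and 0.125 CPM in LF and between 0 and 1.24 CPM in HF, with the highest value in HF6 (2.36 ± 1.62). Genes of the growth hormone and IGF1 axis had 13 of 18 higher (median 0.08, range 0.028 without HF3 to 0.13 without LF6). The receptor gene Ghr was level (515 ± 83.2 against 506 ± 24.4 CPM, 0.03 ± 0.11), Igf1 was at 581 ± 78.0 against 506 ± 86.9 CPM (0.20 ± 0.13), and Onecut1, a hepatocyte transcription factor, had 15.1, 10.5, 6.87 and 2.47 CPM in LF and 17.8, 26.01, 23.7, 9.33 and 27.1 in HF (1.26 ± 0.47).

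**Figure D4:**
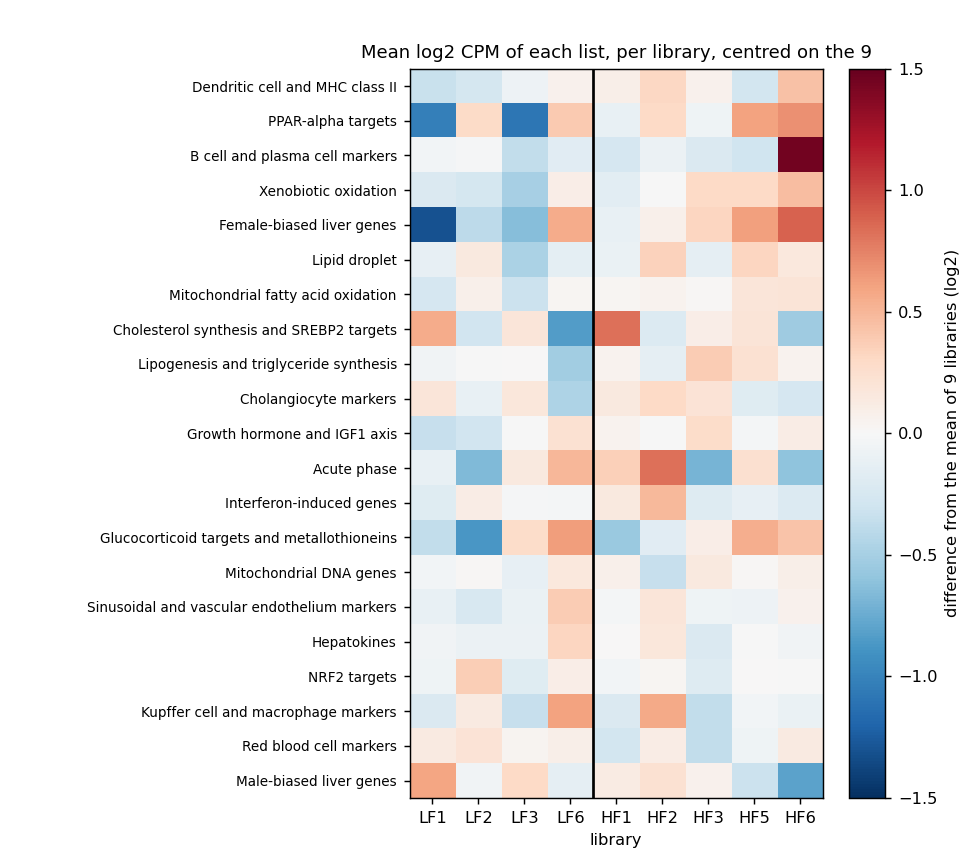
Mean log2 CPM of 21 gene lists in each liver library, centred on the mean of the 9 libraries, for lists in which a library departed by at least 0.3. The vertical line divides LF (left) from HF (right). Animals of the same arm differ in several lists, such as LF1 and LF3 from LF6 for PPAR-alpha targets, and the B cell list stands out in HF6 alone.

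Genes of glucose production and handling were higher in 24 of 31 members (median 0.13, range 0.093 without HF3 to 0.19 without HF2), of which Pcx alone had an unadjusted p under 0.05. Pck1, which commits oxaloacetate to glucose, was level (4365 ± 1416 against 4490.4 ± 1944 CPM, -0.04 ± 0.32), and G6pc, which releases glucose, ran from 206 CPM in LF1 to 892 CPM in HF6 (0.39 ± 0.52). Pgm2 lay lower (-0.25 ± 0.22). Hormones secreted by the liver had 12 of 26 higher (median -0.03, range -0.11 without HF2 to 0.061 without LF6), with Enho at the lower end. Fgf21, the fasting hormone, had 0.929, 11.3, 0.9990 and 5.14 CPM in LF and 6.14, 9.48, 1.86, 3.62 and 4.02 in HF (0.20 ± 1.02), and Fetub, a secreted protease inhibitor, 475 ± 51.4 against 387 ± 92.6 CPM (0.29 ± 0.14).

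Stress and rhythm genes gave similar pictures. Of the integrated stress response, 11 of 19 members were higher (median 0.02, range -0.076 without HF2 to 0.064 without LF6). Mthfd2, a mitochondrial folate enzyme, had 2.79, 1.79, 1.94 and 1.97 CPM in LF and 1.64, 1.10, 1.08, 1.11 and 1.02 in HF (-0.83 ± 0.27), without overlap, while its partner Shmt2 was at 293 ± 32.4 against 259 ± 13.1 CPM (0.18 ± 0.10) and Ddit3 at 0.18 ± 0.16. The stress gene Nupr1 had 7.26 CPM in LF2 and between 0.804 and 1.99 in all others (-1.20 ± 0.40). Clock genes had 12 of 20 higher (median 0.05, range -0.029 without LF2 to 0.10 without LF3): Arntl was at 0.02 ± 0.47, Per2 at 0.41 ± 0.25 and Bhlhe40 at -0.13 ± 0.11. Glucocorticoid targets and metallothioneins had 13 of 20 higher (median 0.05, range -0.071 without LF2 to 0.18 without LF6). Fkbp5, a direct target of the glucocorticoid receptor, had 62.2, 36.3, 114 and 177 CPM in LF and 74.4, 99.3, 135, 186 and 217 in HF (0.54 ± 0.52), a range of several fold within each arm, and Klf9 was at -0.07 ± 0.12. The time of day at which tissue was taken is not given in the labels.

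Zones of the liver lobule differ in their genes, and genes of the portal zone were higher in 9 of 22 members (median -0.06, range -0.17 without LF2 to -0.00059 without LF6) while genes of the central zone were higher in 21 of 32 (median 0.13, and 0.06 without LF3 and 0.08 without HF2). Cyp2c54 and Cyp2c50 are members of the central list. Glul, the glutamine synthetase of the cells around the central vein, was at 1383 ± 157 against 1213 ± 139 CPM (0.19 ± 0.11), and Gstm3 at -0.53 ± 0.37. In the portal list, Pigr, the receptor that carries IgA into bile, was at 1686 ± 172 against 1383 ± 127 CPM (0.29 ± 0.10), Sds at -0.15 ± 0.46 and Sdsl at -0.29 ± 0.17.

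The series title names the microRNA let-7, which lowers its targets by pairing its seed (bases 2 to 8) with sites in their 3′ UTRs. Of the 9 mature let-7 and miR-98 sequences of mouse in RefSeq (GRCm38.p6), all share a seed, and 4 are printed to show it, with the seed in capitals.
mmu-let-7a-5p: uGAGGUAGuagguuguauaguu
mmu-let-7c-5p: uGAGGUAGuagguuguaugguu
mmu-let-7d-5p: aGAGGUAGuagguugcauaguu
mmu-miR-98-5p: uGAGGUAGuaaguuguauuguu
The 8-base match to the seed is CTACCTCA on the mRNA strand, the 7-base matches are CTACCTC and TACCTCA, and the 6-base match is TACCTC (this strand only, each gene placed in the longest class it holds). Of 12202 genes with an annotated 3′ UTR, 448 held the 8-base match, and their median log2 fold change was 0.013, with 53.3% above 0. The 1661 genes with a 7-base match had a median of 0.008 (52.0% above 0), and the 8910 genes with no match had a median of -0.004 (48.9% above 0). The 391 genes with several 7- or 8-base matches had a median of 0.021 (55.5% above 0). Genes with a match have longer 3′ UTRs (medians of 2534 bases for the 8-base match and 892 bases for none), and the part of length was not tested. MicroRNAs themselves were not measured in these libraries.

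Listed let-7 targets of insulin and growth signalling were higher in 20 of 34 members (median 0.04, range -0.013 without HF5 to 0.054 without LF6). Igf2bp2, an mRNA-binding protein, was at -0.13 ± 0.29, Thbs1, thrombospondin, at 1.17 ± 0.547 against 0.571 ± 0.293 CPM (1.10 ± 0.43) and Cdc34, a ubiquitin-conjugating enzyme, at 59.7 ± 8.15 against 70.3 ± 8.33 CPM (-0.23 ± 0.10). Genes that make and load microRNAs were higher in 16 of 19 members (median 0.08, and 0.04 without LF2 and 0.04 without HF5), with 0 at an unadjusted p under 0.05. Dicer1, which cuts the hairpin, was at 41.3 ± 3.43 against 39.8 ± 3.74 CPM (0.05 ± 0.09), Tut4, which adds uridines to the let-7 precursor, at 16.9 ± 2.29 against 13.6 ± 0.953 CPM (0.31 ± 0.16) and Prkra at -0.16 ± 0.12. Imprinted genes, expressed from the allele of one parent, had 10 of 26 higher (median -0.02, range -0.060 without LF1 to 0.0096 without LF3). The maternally expressed RNA gene Meg3 was at -0.03 ± 0.30, Peg13 at 9.88 ± 1.34 against 7.62 ± 1.39 CPM (0.37 ± 0.19) and Peg10 at 1.11 ± 0.387 against 2.54 ± 1.91 CPM (-1.14 ± 0.49), of which LF2 held 5.16 CPM.

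Markers of other cell types were checked beside these results, since in whole tissue fewer cells of a type and less RNA per cell cannot be told apart. Hepatocyte markers had 11 of 19 higher (median 0.05, range 0.017 without LF2 to 0.082 without HF6), with Asgr2 at 0.17 ± 0.10 and Ttr, transthyretin, at -0.24 ± 0.13. Kupffer cell and macrophage markers were lower in 21 of 27 (median -0.16). The median moved with single libraries, to -0.26 without LF1, -0.27 without LF3, 0.17 without LF6, -0.10 without HF1 and -0.37 without HF2. Clec4f, the Kupffer cell lectin, was at 69.3, 82.5, 47.5 and 143 CPM in LF and 45.3, 129, 62.5, 55.7 and 78.7 in HF (-0.20 ± 0.33), and Cd9 at -0.28 ± 0.16. Itgax, the member of smallest p on the higher side of this list, was at 0.68 ± 0.38. Endothelial markers had no common direction (15 of 27 higher, median 0.01, range -0.077 without LF2 to 0.19 without LF6), with Stab2 of the sinusoids at -0.01 ± 0.15 and Rspo3 of the central vein at -0.28 ± 0.21, beside the higher Nrp2, which is on this list too. Neuropilins, VEGFs and semaphorins had 12 of 23 higher (median 0.00, range -0.063 without LF2 to 0.047 without LF6), with the growth factor gene Vegfd at the lower end (0.772 ± 0.219 against 1.56 ± 0.343 CPM, -0.99 ± 0.30), without overlap.

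Stellate cell and fibroblast markers had 10 of 25 higher (median -0.02, range -0.11 without HF1 to 0.029 without HF6): Lrat, which stores vitamin A, was at -0.25 ± 0.19, Acta2 at 1.99 ± 0.419 against 2.70 ± 0.449 CPM (-0.43 ± 0.21) and Tpm2 at 5.09 ± 1.96 against 2.98 ± 0.963 CPM (0.79 ± 0.32). Cholangiocyte markers had 8 of 14 higher (median 0.11, range -0.069 without LF6 to 0.29 without LF1), with Krt19 at -0.14 ± 0.49, the cilium gene Pkhd1 at 4.78 ± 0.511 against 3.54 ± 0.488 CPM (0.44 ± 0.17, without overlap) and Sox9 at 6.76 ± 2.17 against 11.3 ± 3.05 CPM (-0.74 ± 0.25). Spp1, osteopontin, was at 349 CPM in LF1 and between 23.2 and 71.5 CPM elsewhere (-1.14 ± 0.68). Red blood cell markers were lower in 8 of 11 (median -0.22, and -0.10 without HF1 and -0.13 without HF3). Hba-a1 was at 16.3 ± 6.92 against 21.6 ± 3.78 CPM (-0.41 ± 0.24) and its near copy Hba-a2 at -0.85 ± 0.41. Ube2l6, also on this list, was at 0.21 ± 0.15. It had 618 to 1016 counts in the 9 libraries, where Hba-a1 had 149 to 359, and whether it stands for red cells here was not tested.

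Genes of dendritic cells and MHC class II were higher in 14 of 15 members (median 0.31, and 0.18 without LF1, 0.16 without HF2 and 0.13 without HF6). H2-Aa, a class II chain, had 16.9, 21.8, 24.8 and 26.1 CPM in LF and 24.9, 37.5, 27.5, 25.1 and 28.3 in HF (0.35 ± 0.19), and Cd74, the invariant chain, 78.8 ± 19.6 against 63.6 ± 14.5 CPM (0.31 ± 0.19). Irf8 was at -0.02 ± 0.15. B cells carry class II genes as well, and their part in these values was not tested. B cell markers had a centred mean of 1.45 in HF6 and between -0.37 and -0.02 in the other 8 libraries. Jchain, which joins antibody chains, was at 1.66, 0.737, 0.874 and 0.824 CPM in LF and 1.14, 1.03, 1.68, 1.11 and 14.5 in HF, and Igkc, the kappa light chain, at 6.83, 3.26, 3.93 and 3.11 and 4.64, 4.48, 4.51, 3.76 and 59.5. The B cell median was 0.27, and 0.46 without LF2, 0.43 without HF3 and -0.01 without HF6. Cd79a was at 0.27 ± 0.45 and Bank1 at -0.66 ± 0.41.

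Of 30 listed T and NK cell markers, 7 were among the genes tested, and 4 of 7 were higher (median 0.76, and 0.44 without LF2, 1.33 without LF6, 0.47 without HF2 and 0.08 without HF6). Ccl5, a chemokine of these cells, was at 0.332, 0.526, 0.4995 and 0.634 CPM in LF and 0.642, 0.955, 0.782, 0.766 and 3.36 in HF (1.36 ± 0.48), and HF6 again held the highest value. Cd4 was at -0.43 ± 0.33 and Zap70 at -0.42 ± 0.28. Interferon-induced genes had 24 of 38 higher (median 0.07, range -0.093 without HF2 to 0.14 without HF5): Isg15 was at 0.02 ± 0.33, the chemokine Cxcl9 at 7.72 ± 1.82 against 4.74 ± 1.52 CPM (0.72 ± 0.28) and Bst2 at 156 ± 16.1 against 187 ± 24.4 CPM (-0.26 ± 0.11). The proliferation marker Mki67 was at 0.51 ± 0.43, near 1 CPM in both arms.

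The 10 genes that varied most within the arms are given by library. Saa1 and Saa2, serum amyloid A proteins of inflammation, had 200.5, 95.9, 915 and 3421 and 81.3, 44.3, 754 and 3399 CPM in LF, and 1154, 2938, 23.4, 1088 and 63.5 and 809.9, 2882, 10.9, 1165 and 24.6 CPM in HF. LF6 and HF2 were the highest and HF3 and HF6 the lowest of the 9 libraries, so the arms spanned each other. Lcn2, an iron-sequestering acute phase protein, was at 22.1, 4.95, 28.7 and 101 CPM in LF and 57.7, 208, 1.74, 59.2 and 6.14 in HF, with HF2 the highest. The acute phase list as a whole had 20 of 33 higher (median 0.08), and its median ran from -0.15 without HF2 to 0.20 without LF6. Hamp2, of the hepcidin family, was at 13.2, 6.32, 19.2 and 3.93 CPM in LF and 13.1, 4.70, 66.0, 8.28 and 40.6 in HF (1.30 ± 0.90, and 0.63 without HF3, its highest library). Orm2 was at 20.7 ± 18.1 against 35.9 ± 40.6 CPM (-0.81 ± 1.14).

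Mt2, a metallothionein, was at 1.72, 1.37, 40.3 and 41.1 CPM in LF and 13.2, 41.8, 7.88, 36.9 and 9.36 in HF (0.02 ± 1.08). Acot3, a peroxisomal thioesterase and PPAR-alpha target, had 0.730, 17.8, 1.37 and 89.4 CPM in LF and 16.2, 17.05, 38.1, 61.7 and 65.8 in HF (0.53 ± 1.10). LF1 and LF3 were the lowest and LF6 the highest. Moxd1, a male-biased monooxygenase, was instead highest in LF3 and LF1, and LF6 was the lowest of the LF libraries. It was at 152, 3.68, 246 and 1.84 CPM in LF and 57.3, 9.41, 32.6, 1.18 and 0 in HF (-2.33 ± 1.71). Its 0 counts in HF6 allow up to 0.224 CPM, a limit for counting error only. Tff3, a secreted trefoil peptide (48.2, 8.95, 151 and 6.02 CPM in LF, 35.1, 25.6, 13.9, 13.5 and 4.24 in HF), and Fabp5, a fatty acid binding protein (177, 25.6, 217 and 6.596 and 114, 70.1, 50.2, 89.2 and 30.7), were likewise highest in LF3. Their fold changes were -1.55 ± 1.12 and -0.59 ± 0.88.

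**Figure D5:**
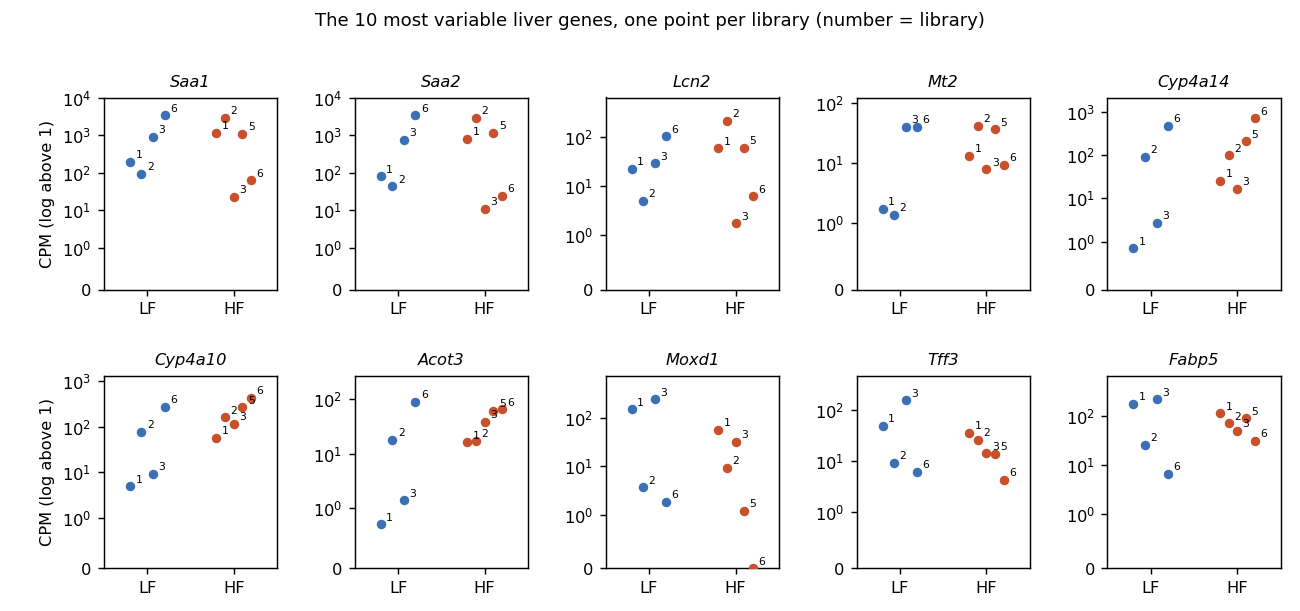
CPM of the 10 genes that varied most within the arms, with a point for each LF (blue) and HF (orange) liver library and its number beside it, on an axis that is logarithmic above 1 CPM. Saa1, Saa2 and Lcn2 are high in LF6 and HF2, and the PPAR-alpha targets Cyp4a14, Cyp4a10 and Acot3 are low in LF1 and LF3.

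In the HFLF arm, which was compared with neither arm here, some of the genes named above had the following levels. Levels of the other leading genes in this arm are not reported here. Lpgat1 was at 233 ± 30.3 CPM, Nrp2 at 19.9 ± 3.01 and Acsm3 at 92.4 ± 10.6. Gstp1 was at 995 ± 261 CPM, Gstp-ps at 10.9 ± 2.81, Lrp2 at 1.496 ± 0.780 and Cyb5r1 at 11.1 ± 1.81. Wdfy4 was at 5.64 ± 1.37 CPM, Tnfrsf19 at 6.53 ± 0.798, Adgrg2 at 1.33 ± 0.718 and Cdk20 at 8.30 ± 1.24. For Pcx the value was 854 ± 64.5 CPM and for Aacs 90.4 ± 35.8 (n = 6 for each, mean ± SD). The HFLF means of Gstp1, Gstp-ps, Lrp2, Wdfy4, Tnfrsf19, Adgrg2, Cdk20, Pcx and Aacs lay between the HF and LF means.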

How the data were processed

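Libraries were prepared from total RNA with a NovaSeq reagent kit, per the labels' protocols. The authors deposited whole-number counts per gene. The submitters' processing notes name STAR and GRCm38.p6, while the counting tool, its strand setting, the annotation and all versions of these tools were not given in the sources used here. Genes of low CPM had been removed, per the name of the deposited table, and all 13677 genes reached 0.5 CPM in at least 3 of the 15 libraries. A deposited RPKM table was not used. Here the counts were fitted with edgeR 4.0.16 in R 4.3.3 (TMM factors, filterByExpr, which removed 0 genes, robust quasi-likelihood, 1 term per arm, 15 liver libraries, 12 residual degrees of freedom, biological coefficient of variation 0.194), and HF was contrasted with LF. Reads have no molecular identifiers, so limits cover counting error only (floor of 3 counts, 0.174 to 0.325 CPM in the 9 libraries).

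Genes were named by rules: among genes without a predicted-gene or clone name, the 12 of smallest p in each direction with a mean of at least 1 CPM and the 6 of largest difference without overlap in each direction at 5 CPM or more; the 10 most variable within arms at 10 CPM or more; and for each described list its first gene and the member of smallest p in each direction. Some genes that these rules name are not reported here. A further 25 genes, among them Acot1, Pdk4, Scd1, Thrsp, G6pc, Spp1, Igkc and Mki67, are other list genes or were chosen after their values were seen. Members and lists were chosen with earlier results of these data known. The list score of a library is the mean log2 CPM of the members (prior count of 2). Symbols, exon lengths and 3′ UTRs came from GENCODE M21, which named 13662 genes. UTRs under 50 bases were left out. The fit was tested on simulated data. Alternatives were other size factors and filters, the 9 libraries alone, DESeq2 1.42.0, limma voom 3.58.1, a replicate block and leaving out each library.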

Additional observations from a re-analysis of the deposited data

Results flagged for a closer look

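Within each arm, the highest or lowest library was set against the others for the named genes and the described lists. A library was taken as far from the others when its gap to the nearest of them exceeded the 95% limit of Dixon's test for 4 or 5 values. This held in 39 of 404 sets of values. Chance gives about 1 in 20 for independent values, a rate that does not apply here, since the genes and lists overlap and some genes were chosen for their spread or after their values were seen. HF6 was the library in 9 of them, LF6 in 7 and LF1 in 6. LF1 stood apart from the other LF libraries for Pcx at 795 CPM (others 723 to 735), Fabp4 at 29.4 CPM (others 7.37 to 8.50), Pgm2 at 8.29 CPM (others 4.62 to 4.74), Jchain at 1.66 CPM (others 0.737 to 0.874), Ppara at 83.5 CPM (others 61.6 to 64.1) and Spp1 at 349 CPM (others 31.5 to 62.9). LF2 stood apart from the other LF libraries for Dicer1 at 34.2 CPM (others 40.9 to 42.3), Acta2 at 3.37 CPM (others 2.41 to 2.52), Igf1 at 376 CPM (others 543 to 561) and Nupr1 at 7.26 CPM (others 1.78 to 1.99). LF3 stood apart from the other LF libraries for Ces1g at 46.8 CPM (others 72.4 to 77.7), Ddit3 at 5.37 CPM (others 6.41 to 6.53) and Mrpl39 at 29.2 CPM (others 33.4 to 33.7). LF6 stood apart from the other LF libraries for Adgrg2 at 1.33 CPM (others 0.375 to 0.464), Cux2 at 8.94 CPM (others 0.105 to 0.937), Mup20 at 4206 CPM (others 6205 to 6377), Orm2 at 96.1 CPM (others 6.95 to 20.5), G6pc at 645 CPM (others 206 to 269.9), the mean log2 CPM of the lipogenesis and triglyceride synthesis list at 7.10 (others 7.57 to 7.63) and the mean log2 CPM of the hepatokines list at 7.47 (others 7.05 to 7.09). HF1 stood apart from the other HF libraries for Lrp2 at 0.571 CPM (others 1.32 to 1.62) and Mthfd2 at 1.64 CPM (others 1.02 to 1.11). HF2 stood apart from the other HF libraries for Lcn2 at 208 CPM (others 1.74 to 59.2), H2-Aa at 37.5 CPM (others 24.9 to 28.3) and the mean log2 CPM of the mitochondrial DNA genes list at 10.18 (others 10.55 to 10.68). HF3 stood apart from the other HF libraries for Cyp2c54 at 161 CPM (others 80.8 to 99.9), Nqo1 at 2.65 CPM (others 3.29 to 3.41), Fetub at 565 CPM (others 442 to 466) and the mean log2 CPM of the branched-chain amino acid catabolism list at 6.90 (others 6.73 to 6.77). HF5 stood apart from the other HF libraries for Osbpl3 at 22.4 CPM (others 11.8 to 13.3). HF6 stood apart from the other HF libraries for Cyp4a14 at 722 CPM (others 16.7 to 212), Cyp2b9 at 1.24 CPM (others 0 to 0.301), Peg13 at 12.2 CPM (others 8.89 to 9.67), Tpm2 at 8.48 CPM (others 3.498 to 4.69), Ccl5 at 3.36 CPM (others 0.642 to 0.955), Jchain at 14.5 CPM (others 1.03 to 1.68), G6pc at 892 CPM (others 284 to 365), Igkc at 59.5 CPM (others 3.76 to 4.64) and the mean log2 CPM of the B cell and plasma cell markers list at 2.42 (others 0.66 to 0.88).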

How the results depend on the processing

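The number of genes past an adjusted p of 0.05 was 0 under edgeR with each size factor, filter, subset and left-out library tried, and under limma voom, and 1 under DESeq2 (Gstp-ps, -1.03). Unadjusted p-values under 0.05 were found in 453 to 652 genes under the other settings, and in 382 (without HF5) to 769 (without LF6) genes with 1 library left out. Genes whose arms did not overlap numbered 273 to 600 with 1 library left out, against 183, since fewer libraries overlap less often. The difference in library totals ran from -825154 (without LF2) to 1343210 counts. Replicate numbers were not taken as pairs, since the labels do not say that they pair animals. Deviations of same-numbered HF and LF libraries correlated at 0.106, 0.079, 0.254 and 0.384. Among HF libraries, 3 of 4 LF libraries correlated best with their own number, and what the numbers share was not tested. With the replicate number as a block, edgeR passed 0 genes at an adjusted p of 0.05 and 652 at an unadjusted p under 0.05. Of 158 named genes, 125 kept the sign of their fold change under all alternatives run. The other 33 crossed it under at least 1 of them, and the cause was not tested. With limma voom the values were Lcn2 -0.17, Fabp5 0.33, Cyp7a1 0.064, Pck1 0.022, Arntl -0.012, Isg15 -0.039 and Gstp3 0.088. With the replicate block the values were Lcn2 -0.69, Cyp7a1 0.069, Arntl -0.097, Rpl3 0.021, Stab2 0.036, Irf8 0.035, Scd1 -0.21 and Gstp3 0.11. With 1 library left out the fold changes spanned Saa2 -1.09 to 1.72, Cyp4a14 -0.72 to 2.77, Saa1 -0.99 to 1.37, Lcn2 -0.34 to 1.80, Mt2 -0.38 to 0.53, Fabp5 -0.995 to 0.013, Gpd1 -0.32 to 0.072, Mvk -0.52 to 0.30, Plin2 -0.036 to 0.78, Apoa4 -0.066 to 0.36, Cyp7a1 -0.41 to 0.27, Nqo1 -0.092 to 0.29, Cux2 -2.06 to 0.58, Ghr -0.050 to 0.11, Pck1 -0.27 to 0.16, Fgf21 -0.17 to 1.07, Arntl -0.23 to 0.28, Orm2 -1.40 to 0.35, Rpl3 -0.13 to 0.070, Fau -0.029 to 0.13, Sds -0.38 to 0.16, Dicer1 -0.019 to 0.092, Meg3 -0.15 to 0.12, Isg15 -0.23 to 0.15, Krt19 -0.46 to 0.11, Stab2 -0.11 to 0.090, Clec4f -0.50 to 0.16, Irf8 -0.10 to 0.076, Pdk4 -0.19 to 0.58, Scd1 -0.25 to 0.40, Gstp3 -0.26 to 0.12, G6pc -0.041 to 0.92 and Spp1 -1.47 to 0.34. Among named genes that kept their sign, those beyond 0.5 on the log2 scale that moved by over 1.5 times spanned Moxd1 -3.21 to -1.39, Acot3 0.12 to 2.71, Cyp4a10 0.71 to 2.77, Tff3 -1.93 to -0.20, Fabp4 -0.99 to -0.040, Fkbp5 0.26 to 0.99, Hamp2 0.63 to 1.76, Gstm3 -0.65 to -0.34, Peg10 -1.43 to -0.60, Itgax 0.43 to 1.11, Ccl5 0.65 to 1.53, Jchain 0.27 to 2.22, Bank1 -0.91 to -0.34, Hba-a2 -1.31 to -0.64, Acot1 0.37 to 1.68, Nupr1 -1.41 to -0.49 and Igkc 0.012 to 2.14. List medians changed sign in 108 of 1105 values. They stayed within 1 SD of the library scores (the larger of the 2 arms) in 1100. That limit is wide, since the SD can exceed the median itself, as in PPAR-alpha targets (0.81 against 0.31) and acute phase genes (0.65 against 0.08). No stability of the medians is read from it. Depth limits genes near 1 CPM, where 3 counts are 0.174 to 0.325 CPM, and 4 against 5 animals limit all of them.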
